A study of Homo sapiens with 12 samples.

Results

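Carmofur was compared with vehicle in U251T cells, in 3 carmofur and 3 vehicle libraries of the 12 in the series, and every gene of the table was considered. Of 60107 gene identifiers, 7204 had enough counts in U251T to be tested. U251 is an established human glioblastoma line. The labels call the 2 lines of the series U251P and U251T without saying what the last letter stands for. In all groups the cells adhered, were kept without serum for 16 h and were then given full medium with serum, B27 equivalent, epidermal and fibroblast growth factors for 24 h, with DMSO in the vehicle groups or carmofur in the others; the methods of the study also place carmofur in the starvation. The question put to the design was which transcripts change with carmofur in cells studied for migration. The methods of the study describe biological triplicates for its experiments in general, and the labels give a replicate number for each library.

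Carmofur is a carbamoyl derivative of fluorouracil and also inhibits acid ceramidase, the lysosomal enzyme that splits ceramide into sphingosine and a fatty acid. Fluorouracil and its metabolites block thymidylate synthase and enter RNA and DNA. Genes of S phase and mitosis are transcribed in waves as cells cycle, under E2F factors for replication and under the DREAM and MuvB complexes for mitosis. The transcription factor p53 turns on arrest, repair and death genes after DNA damage.

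The U251T libraries stood apart from those of U251P. Totals ranged from 566061 to 2817379 counts with vehicle and from 383633 to 1078340 with carmofur, against 3295045 to 6350873 in U251P. Identifiers annotated as pseudogenes held 10.8% to 12.4% of U251T counts and 0.272% to 0.307% of U251P counts. Genes of the mitochondrial genome held 0.354% to 0.881% and 19.5% to 26.2%. Beta-2-microglobulin (B2M), a component of MHC class I made by nearly every nucleated cell, had a mean of 5.49 CPM (counts scaled to library size) in U251T and 1730 in U251P. Among glial markers VIM, CD44, SOX9 and GFAP (mean 53 CPM) were present, whereas NES and SOX2 had at most 2 and 1 counts in any U251T library and S100B, AQP4, OLIG2 and CHI3L1 were at 0. Whether all reads of U251T came from human RNA was not tested, and a gene near 0 there was not read as silent.

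Carmofur was followed by a fall of genes of mitosis and DNA replication and a rise of p53 targets, matrix genes and a smaller number of adhesion, neuronal and lysosomal genes in U251T. With edgeR (quasi-likelihood, Benjamini-Hochberg adjusted p under 0.05), 1262 of 7204 genes were called (17.5%), 655 higher (9.09%) and 607 lower (8.43%). With the replicate number as a block, 2085 genes were called (28.9%), 1065 higher and 1020 lower, and all of the 1262 were among them. The block fit, on the same 3 vehicle and 3 carmofur libraries, gave far smaller adjusted p-values. For HMMR edgeR gave 1.47e-75 with the block and 5.66e-10 without it. Counts with the block are therefore a looser second fit and no separate support. The median log2 fold change was 0.962 among genes called higher, -0.935 among those called lower and 0.01 over all genes tested. For 1221 of the 1262 the 3 carmofur libraries did not overlap the 3 vehicle libraries, which held for 32.9% of all genes tested (16.2% higher, 16.7% lower). An unadjusted p under 0.05 was found for 2138 genes (29.7%). Some genes passed the filter on low counts (9.77 CPM in at least 3 libraries) only through the group where they were high, namely 111 of the 655 called higher and 96 of the 607 called lower, and for those the direction was partly fixed by the filter. Among called members this held for 13 of 55 mitosis, 11 of 24 replication, 4 of 19 p53, 3 of 7 neuronal and 3 of 8 lysosomal genes. The same held for 1 called member each on the nucleotide, matrix, sterol, FOXO, mTOR, glycolysis, heat shock, inflammation and Notch lists. Without carmofur replicate 1 the genes called higher numbered 436, and 647 of the 1262 were called whichever library was left out.

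**Figure D1:**
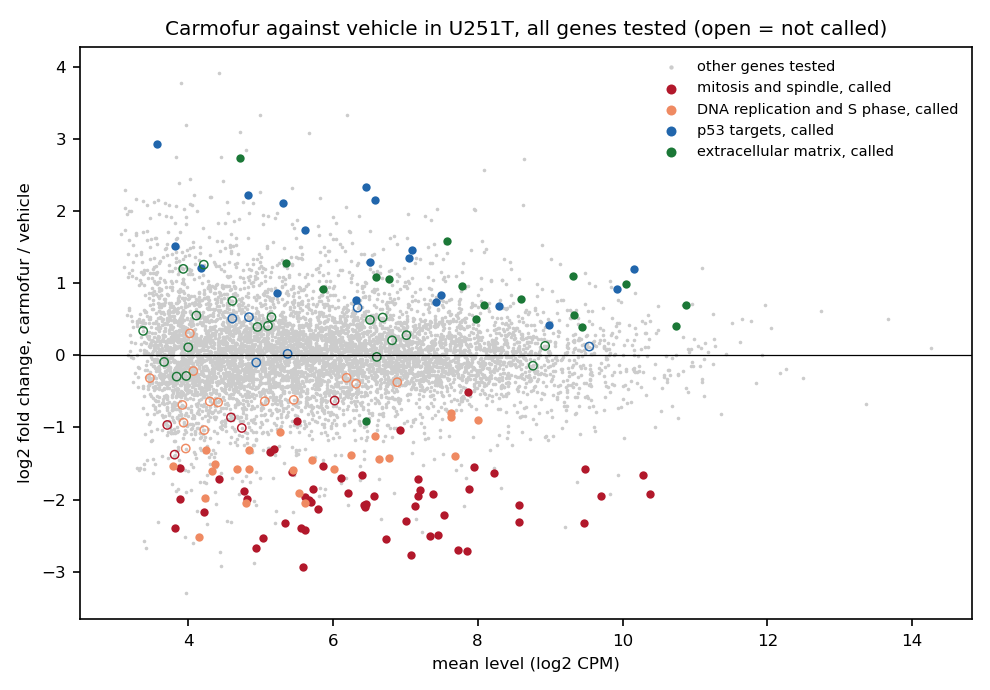
The log2 fold change of carmofur over vehicle (vertical axis) is plotted against the mean level in log2 CPM (horizontal axis) for the 7204 genes tested in U251T; filled colored points are called members of 4 lists and open points are members not called. The mitosis and replication genes lie below 0 at low and high levels, except 1 replication gene that was not called, and the called p53 targets lie above 0.

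The genes of mitosis had the lowest median of the 23 lists. Of 78 genes on the list 60 were tested, 55 were called lower and 0 higher, and all 60 had a log2 fold change below 0; at an unadjusted p under 0.05 there were 59 (29.7% of all genes tested), and DESeq2 called 52 lower and 0 higher. In 57 the carmofur libraries lay below all vehicle libraries (16.7% of all genes tested). The median of the list was -1.95, from -2.94 for DEPDC1 to -0.5 for CKAP2. Of the 60, 15 passed the filter on low counts only through vehicle, so that their direction was partly fixed by it. By role, 10 of 11 tested kinases and cyclins of mitotic entry, 34 of 37 spindle, kinetochore and cytokinesis genes and 11 of 12 genes of anaphase and chromosome structure were called lower. The 5 members not called were PKMYT1, CENPK, RACGAP1, SGO1 and PTTG1. The other 18 were not tested, with at most 49 counts in any library.

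Promoters of these genes commonly carry the cell cycle homology region (CHR, searched as TTTGAA), which MuvB binds, and CCAAT boxes (CCAAT), which NF-Y binds. The 250 bases before the start are shown for the 4 mitosis genes with the smallest p-values that held both motifs and whose window did not reach into the GENCODE gene. They are RefSeq sequences of GRCh38.p14, read 5′ to 3′ along the gene's strand, with capitals marking either motif on either strand.
KIF11 (chr10:92592880-92593129, plus strand): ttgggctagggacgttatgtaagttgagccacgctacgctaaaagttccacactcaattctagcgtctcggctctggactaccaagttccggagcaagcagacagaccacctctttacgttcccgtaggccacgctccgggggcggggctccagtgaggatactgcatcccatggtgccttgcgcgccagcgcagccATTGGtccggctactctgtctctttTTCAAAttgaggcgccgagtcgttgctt
CDK1 (chr10:60778081-60778330, plus strand): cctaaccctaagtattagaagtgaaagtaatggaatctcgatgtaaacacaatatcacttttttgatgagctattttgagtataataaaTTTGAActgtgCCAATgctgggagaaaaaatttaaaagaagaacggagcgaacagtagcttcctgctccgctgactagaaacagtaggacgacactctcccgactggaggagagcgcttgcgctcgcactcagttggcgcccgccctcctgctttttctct
CKS2 (chr9:89310945-89311194, plus strand): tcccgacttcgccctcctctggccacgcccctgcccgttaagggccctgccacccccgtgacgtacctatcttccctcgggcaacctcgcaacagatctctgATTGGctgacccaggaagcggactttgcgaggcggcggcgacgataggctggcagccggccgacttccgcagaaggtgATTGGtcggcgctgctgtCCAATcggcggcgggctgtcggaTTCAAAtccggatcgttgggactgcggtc
MKI67 (chr10:128126424-128126673, minus strand): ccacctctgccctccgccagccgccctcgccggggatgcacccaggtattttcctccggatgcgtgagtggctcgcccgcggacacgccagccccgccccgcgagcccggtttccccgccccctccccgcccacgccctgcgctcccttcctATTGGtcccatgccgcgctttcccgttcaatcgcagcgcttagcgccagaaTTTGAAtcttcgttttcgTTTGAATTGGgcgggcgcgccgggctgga
In these windows the first letter of the CHR lay 28, 161, 29 and 29 bases before the start at its nearest, and neighbouring motifs share letters in MKI67. A CHR was present in 47.0% of the 66 mitosis list promoters in the table, 0 of 49 replication list promoters, 9.18% of 5098 promoters of genes tested and 13.6% of all 27305. A CCAAT box was present in 71.2%, 51.0%, 36.0% and 33.0% in the same order. A short E2F motif (TTCCCGCC) was present in 6.06%, 22.4%, 4.77% and 2.77%. These matches are letters in a window and no measure of binding.

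KIF11, the motor that pushes spindle poles apart, had 135, 142 and 114 CPM in the vehicle libraries and 35.2, 30.9 and 26.4 in the carmofur libraries, for a log2 fold change of -2.06 ± 0.22 (SE, adjusted p = 3.87e-07). CDK1, the kinase of mitotic entry, had 49.5, 65.7 and 61.6 CPM with vehicle and 13.5, 10.6 and 10.5 with carmofur, at -2.32 ± 0.3 (SE, adjusted p = 7.15e-06). MKI67, which coats mitotic chromosomes and marks cycling cells, had 59.6, 49.1 and 75.7 CPM with vehicle and 16.6, 18.4 and 26.4 with carmofur, at -1.62 ± 0.29 (SE, adjusted p = 0.000277). They were named for their promoters, outside the naming rule and after their values were seen. For each of them every carmofur library was below every vehicle library.

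The smallest p-values of all genes belonged to mitosis and chromatin genes. HMMR, a spindle-associated hyaluronan receptor (chr5:163460203-163491945, hg38), had 348, 407 and 406 CPM with vehicle and 60.0, 64.8 and 47.5 with carmofur, 6.53-fold lower, at -2.71 ± 0.17 (SE, adjusted p = 5.66e-10). ASPM, which focuses spindle poles (chr1:197084128-197146694), had 618, 609 and 639 CPM with vehicle and 139.7, 125 and 103 with carmofur, at -2.31 ± 0.15 (SE, adjusted p = 6.5e-10). TOP2A, the topoisomerase that untangles chromosomes, had 2224, 2005 and 2066 CPM with vehicle and 639, 509 and 501 with carmofur, at -1.93 ± 0.14 (SE, adjusted p = 1.69e-09). The libraries within each group were close and the groups far apart for all 3. BUB1B, a spindle checkpoint kinase, had 273, 297 and 287 CPM with vehicle and 56.9, 51.2 and 39.5 with carmofur, at -2.49 ± 0.18 (SE, adjusted p = 1.69e-09). CCNA2, the cyclin of S and G2 phase, had 238, 303 and 239 CPM with vehicle and 50.7, 43.5 and 42.2 with carmofur, at -2.51 ± 0.19 (SE, adjusted p = 2.88e-09). CENPE, a kinetochore motor, and ANLN, which builds the cleavage furrow, had log2 fold changes of -2.08 and -1.95. Most genes of this paragraph, and 82 of the 121 genes that met the naming rule, overlap another annotated gene or small RNA. Since strand use in the counting was not stated, their counts may include reads of those genes.

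Replication genes also fell. Of 61 genes 38 were tested, 24 were called lower and 0 higher, with a median of -1.3 (37 of 38 below 0). An unadjusted p under 0.05 was found for 28, and DESeq2 called 19 lower and 0 higher. Of the 38, 16 passed the filter on low counts only through vehicle, so that their direction was partly fixed by it. MCM3, a subunit of the replicative helicase, had 153, 173 and 125 CPM with vehicle and 64.2, 57 and 44.8 with carmofur, at -1.42 ± 0.2 (SE, adjusted p = 1.89e-05). E2F1, the factor that drives S-phase genes, had 292, 339 and 232 CPM with vehicle and 127, 102 and 97.5 with carmofur, at -1.4 ± 0.17 (SE, adjusted p = 4e-06). Both were lower in every carmofur library. E2F8, MCM7, CDC6 and GINS1 had log2 fold changes of -1.91, -2.04, -1.58 and -2.04, the last with 7.91 to 40.3 CPM in the 6 libraries.

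Enzymes that make or guard nucleotides were split. Of 32 genes 13 were tested, 4 were called lower and 1 higher (38.5% called, against 17.5% of all genes tested), at a median of -0.09. DUT, which destroys dUTP before it enters DNA, had 212, 262 and 241 CPM with vehicle and 97.3, 89.9 and 71.2 with carmofur, at -1.44 ± 0.17 (SE, adjusted p = 2.69e-06). RRM1 and RRM2, the subunits of ribonucleotide reductase, and DTYMK, the thymidylate kinase, had log2 fold changes of -1.06, -1.0 and -0.98. RRM2B, the p53-inducible subunit of the same reductase, was called higher at 1.51 ± 0.5 (SE, adjusted p = 0.0402) with overlapping groups. RRM2B passed the filter on low counts only through carmofur, so that its direction was partly fixed. Its call was lost without vehicle replicate 1 or 2 or carmofur replicate 1 or 3. When a library was left out its log2 fold change was 0.86 to 1.97. Thymidylate synthase (TYMS) was counted 9, 7 and 3 times in the vehicle libraries and 5, 3 and 3 times in the carmofur libraries and was too low to be tested.

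Among 16 tested genes of the nuclear lamina and chromatin that are linked to senescence, 12 were called lower and 1 higher, at a median of -1.15. The share called was 81.2%, against 17.5% of all genes tested. LMNB1, the B-type lamin, had 341, 406 and 292 CPM with vehicle and 90.0, 80.2 and 73.8 with carmofur, at -2.08 ± 0.17 (SE, adjusted p = 8.14e-09). HMGB2, a chromatin protein, had 959, 1130.1 and 829 CPM with vehicle and 228, 171 and 153 with carmofur, at -2.38 ± 0.16 (SE, adjusted p = 1.41e-09). The groups were well apart for both. TMPO, a lamina-associated protein, and EZH2, the histone methyltransferase of Polycomb, had log2 fold changes of -1.7 and -1.51. The member called higher was CDKN1A.

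The p53 targets rose. Of 49 genes 25 were tested, 19 were called higher and 0 lower, and 24 of 25 had a log2 fold change above 0, with a median of 0.92; 19 had an unadjusted p under 0.05, and DESeq2 called 15 higher and 0 lower. The called members fell into every role, with 6 of 8 tested arrest genes, 3 of 4 feedback genes, 4 of 5 death genes and 6 of 8 repair and metabolism genes. CDKN1A, the p21 inhibitor of cyclin-dependent kinases, had 49.5, 32.5 and 24.6 CPM with vehicle and 155, 141 and 206 with carmofur, 4.46-fold higher, at 2.16 ± 0.23 (SE, adjusted p = 4.71e-07). CCNG1, a cyclin induced by p53, had 743, 628 and 718 CPM with vehicle and 1642, 1649 and 1497 with carmofur, at 1.2 ± 0.13 (SE, adjusted p = 4.94e-07). ZMAT3, an RNA-binding tumor suppressor, had 90.6, 54.7 and 80.9 CPM with vehicle and 189, 215 and 203 with carmofur, at 1.46 ± 0.19 (SE, adjusted p = 9.05e-06). No carmofur library of these 3 genes reached down to the vehicle range. SESN1 and SESN2, stress sensors that restrain mTORC1, had log2 fold changes of 2.11 and 1.35, and SUSD6 of 1.3. Outside the naming rule and chosen after their values were seen, MDM2, the ligase that degrades p53, stood at 0.92 ± 0.15 (SE, adjusted p = 8.05e-05) and DDB2, a damage sensor of nucleotide excision repair, at 2.93 ± 0.5 (SE, adjusted p = 0.00018). PLK2, PPM1D and APAF1 stood at 0.12, -0.1 and 0.02 and were not called.

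**Figure D2:**
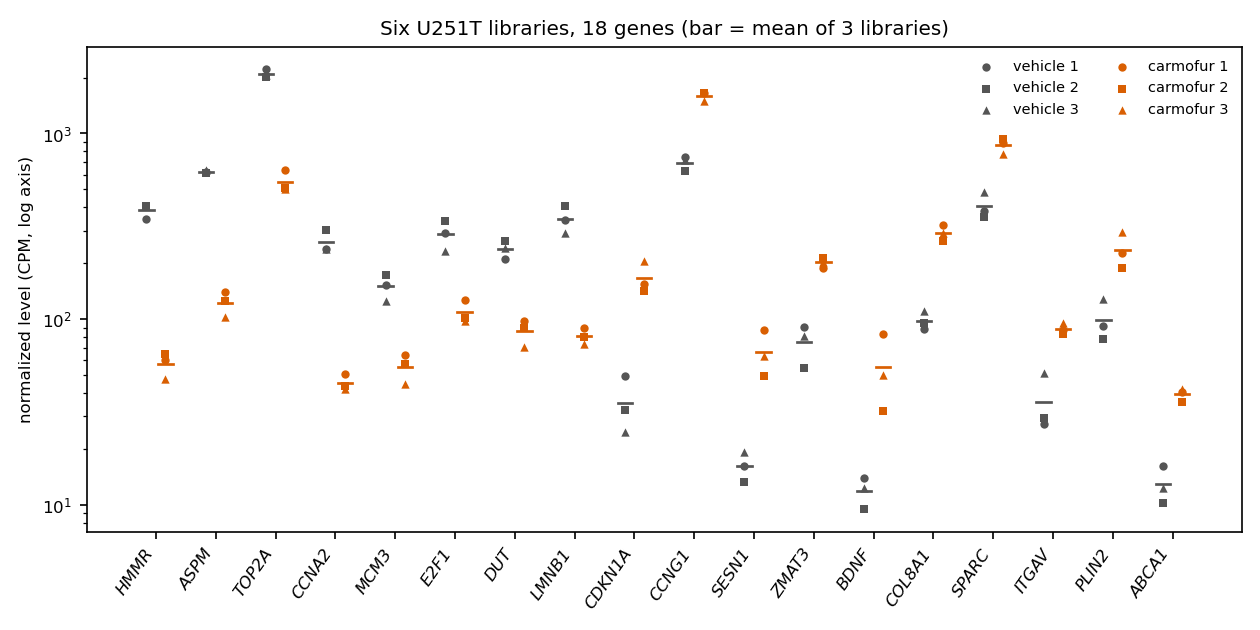
Normalized levels in CPM (log axis) of 18 genes in each of the 6 U251T libraries, gray for vehicle and orange for carmofur, with marker shape for the replicate number and bars for the mean of 3 libraries. Replication, mitosis and lamina genes from HMMR to LMNB1 are lower in every carmofur library, and the genes from CDKN1A to ABCA1 are higher in every carmofur library.

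Of 112 neuronal genes only 23 could be tested and 30 had 0 counts in all 6 libraries. Of the 23, 7 were called higher (9.09% of all genes tested) and 0 lower, and 11 higher with the replicate number as a block (14.8% of all genes tested). An unadjusted p under 0.05 was found for 10, DESeq2 called 6 higher and 0 lower, and the median was 0.63. The filter on low counts was passed only through carmofur by 4 of the 23, 3 of them called, and their direction was partly fixed by it. BDNF, a neurotrophin, had 13.9, 9.44 and 12.3 CPM with vehicle and 82.8, 31.9 and 50.1 with carmofur, at 2.26 ± 0.36 (SE, adjusted p = 8.49e-05). NRG1, a ligand of ERBB receptors, had 83.6, 82.7 and 89.7 CPM with vehicle and 244, 167 and 235 with carmofur, at 1.33 ± 0.18 (SE, adjusted p = 1.13e-05). ANK3, which anchors channels at the axon's initial segment, had 150.2, 105 and 144 CPM with vehicle and 294, 269 and 406 with carmofur, at 1.28 ± 0.18 (SE, adjusted p = 2.1e-05). All 3 were higher in every carmofur library, and BDNF varied most among them. The scaffold SHANK2, the active zone protein PCLO and the potassium channel KCNMA1 had log2 fold changes of 1.92, 1.51 and 1.36. The neuron markers used to check the cell type summed to 3.19 to 13.1 CPM with vehicle and 21.3 to 41.7 with carmofur, 0 of 10 passed the filter on low counts, and SYP and ELAVL4 were at 0; their part in the result was not tested.

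Other genes with small p-values among those called higher belonged to none of the lists. RETREG1, a receptor for autophagy of the endoplasmic reticulum (chr5:16473038-16617058), had 116, 80.8 and 113 CPM with vehicle and 446, 404 and 359 with carmofur, at 2.01 ± 0.16 (SE, adjusted p = 9.93e-09). FAT1, an atypical cadherin, had 231, 217 and 299 CPM with vehicle and 692, 652 and 778 with carmofur, at 1.52 ± 0.15 (SE, adjusted p = 1.59e-07). Neither gene overlapped between groups. ARHGEF4, a guanine nucleotide exchange factor, RIMS2, a presynaptic scaffold, and ZNF219 had log2 fold changes of 1.93, 2.03 and 1.56. COL8A1, CDKN1A and CCNG1 were also among the 10 genes called higher that the rule took by smallest p-value.

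Extracellular matrix genes were called mostly in the upward direction. Of 56 genes 36 were tested, 16 were called higher (9.09% of all genes tested) and 1 lower, with a median of 0.53. COL8A1, a short-chain collagen, had 89, 95.1 and 111 CPM with vehicle and 319.7, 262 and 293 with carmofur, at 1.59 ± 0.16 (SE, adjusted p = 2.41e-07). SPARC, a matricellular protein, had 385, 356 and 486 CPM with vehicle and 887, 930.1 and 775 with carmofur, at 1.1 ± 0.14 (SE, adjusted p = 7.91e-06). LAMB1, a laminin chain, had 75.9, 63.8 and 79.2 CPM with vehicle and 149, 149.9 and 150.3 with carmofur, at 1.06 ± 0.18 (SE, adjusted p = 0.000175). Each was higher in every carmofur library. COL12A1, COL5A2 and the microfibril protein FBN1 had log2 fold changes of 0.99, 0.96 and 0.69, and COL6A3 was the member called lower at -0.92 ± 0.21 (SE, adjusted p = 0.00356). Fibroblast and pericyte markers, with COL1A1 (mean 1670 CPM in U251T and 5.58 in U251P) and COL3A1 among them, summed to 2030 to 2340 CPM with vehicle and 2700 to 2900 with carmofur, 3 of 6 tested were called higher, and LUM and THY1 were at 0; their part in the matrix result was not tested. In bulk samples a change of cell type shares and a change of RNA per cell cannot be told apart.

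Genes of focal adhesion and actin were mostly not called. Of 53 tested, 13 were called higher (24.5%, against 9.09% of all genes tested) and 1 lower. With the replicate number as a block 20 were called higher and 4 lower, against 14.8% and 14.2% of all genes tested, and the median in the fit without it was 0.16. LIMA1, which crosslinks actin, had 105, 85.3 and 135 CPM with vehicle and 264, 307 and 264 with carmofur, at 1.41 ± 0.17 (SE, adjusted p = 3.75e-06). ITGAV, the alpha-V integrin, had 27.1, 29.4 and 51 CPM with vehicle and 86.9, 83.1 and 94.9 with carmofur, at 1.39 ± 0.24 (SE, adjusted p = 0.000274). CCN2, a target of YAP signaling, had 1533, 886 and 1568 CPM with vehicle and 3053, 2550.5 and 3551 with carmofur, at 1.2 ± 0.2 (SE, adjusted p = 0.00116). In all 3 the carmofur libraries were above the vehicle range. Talin (TLN1), smooth muscle actin (ACTA2, which overlaps FAS) and ITGA3 had log2 fold changes of 0.65, 1.11 and 1.02, and the calponin CNN3 was called lower at -0.6 ± 0.17 (SE, adjusted p = 0.0158).

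Lipid lists were called no more often than all genes tested. Of 26 tested genes of sterol and fatty acid synthesis 2 were called higher and 2 lower (15.4% called, against 17.5% of all genes tested), at a median of -0.11. ABCA1, which exports cholesterol, had 16.3, 10.2 and 12.3 CPM with vehicle and 40.4, 35.8 and 42.2 with carmofur, at 1.62 ± 0.32 (SE, adjusted p = 0.000944). ACLY, which makes cytosolic acetyl-CoA, and ACSL3, which activates fatty acids, had log2 fold changes of -0.76 and -0.71. ELOVL1 was called at 0.61 and lost the call without any 1 library other than vehicle replicate 2 (0.46 to 0.74). PLIN2, the coat protein of lipid droplets, was the 1 called member of 10 tested droplet and oxidation genes (10.0%), with 92.1, 78.1 and 128 CPM and 227, 188 and 295 CPM in the vehicle and carmofur groups, at 1.28 ± 0.2 (SE, adjusted p = 8.26e-05).

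Of 55 sphingolipid genes 19 were tested, and 2 were called higher and 0 lower (10.5% called, against 17.5% of all genes tested). An unadjusted p under 0.05 was found for 4 (29.7% of all genes tested), DESeq2 called 1 higher, and the median was 0.13. SPTLC1, a subunit of the first enzyme of ceramide synthesis, had 83.6, 77 and 89.7 CPM with vehicle and 147, 119 and 132 with carmofur, at 0.68 ± 0.18 (SE, adjusted p = 0.00985). SGPP1, which dephosphorylates sphingosine phosphate, had 47.2, 29.8 and 52.8 CPM with vehicle and 76.6, 75.4 and 65.9 with carmofur, at 0.84 ± 0.24 (SE, adjusted p = 0.0183). Acid ceramidase itself (ASAH1) was counted 11, 20 and 6 times in the vehicle libraries and 12, 9 and 3 times in the carmofur libraries and was too low to be tested.

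Among stress genes, the tested members of the factor and regulator role of the ATF4 list were called higher. The amino acid genes of the list mostly were not called. The factor and regulator role holds 14 genes, and only 5 were tested, all called higher at a median of 1.47. SESN2, 1 of these 5, is also on the p53 list. ATF4 itself, ATF5, CEBPB, TRIB3, CHAC1 and PPP1R15A were too low to be tested, so the role as a whole was not read. Of 16 tested amino acid genes 1 was called higher and 1 lower, at a median of -0.17. Over the whole list 7 were called higher and 7 lower with the replicate number as a block, against 14.8% and 14.2% of all genes tested. ATF3, a stress-induced factor, had 34.8, 19.6 and 40.5 CPM with vehicle and 109.7, 118 and 142 with carmofur, at 2.06 ± 0.25 (SE, adjusted p = 3.41e-06). DDIT4, which inhibits mTORC1, had 45.7, 19.3 and 42.2 CPM with vehicle and 80.7, 113 and 116 with carmofur, at 1.62 ± 0.28 (SE, adjusted p = 0.000412). The vehicle and carmofur ranges of these genes did not meet. VLDLR and DDIT3 had 1.47 and 1.08, and the glycyl-tRNA synthetase GARS1 -0.59.

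Of 24 tested heat shock and folding genes 7 were called lower and 2 higher (37.5% called, against 17.5% of all genes tested), at a median of -0.24. With the block 10 were called lower and 4 higher, against 14.2% and 14.8% of all genes tested. The small heat shock protein CRYAB, which shares its locus with HSPB2, had 74.3, 77.8 and 195 CPM with vehicle and 572, 827 and 691 with carmofur, at 2.72 ± 0.41 (SE, adjusted p = 0.00721). HSPB1, another small chaperone, had 8.52, 2.26 and 7.04 CPM with vehicle and 21.7, 19.3 and 26.4 with carmofur, at 2.08 ± 0.49 (SE, adjusted p = 0.00405). HSPB1 passed the filter on low counts only through carmofur, so that its direction was partly fixed. Chaperones of the cytosol and endoplasmic reticulum lay on the other side of 0, with HSP90B1 at -0.7, HSPA8 at -0.53 and HSPA5 at -0.46.

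Lysosome and autophagy genes were called higher in 8 of 22 tested (36.4%, against 9.09% of all genes tested) and lower in 0, at a median of 0.56. An unadjusted p under 0.05 was found for 9 (29.7% of all genes tested), and DESeq2 called only 2 higher. Of the 8, 3 passed the filter on low counts only through carmofur. ATP6V1H, a subunit of the proton pump, had 69.7, 45.7 and 91.5 CPM with vehicle and 235, 138 and 237 with carmofur, at 1.63 ± 0.26 (SE, adjusted p = 0.000315). GABARAP, an autophagosome protein, had a log2 fold change of 0.76 and the protease CTSL of 1.5, which lost its call without vehicle replicate 2 or any 1 carmofur library (0.8 to 2.06). Of 19 tested glycolysis genes 4 were called higher and 1 lower (26.3% called, against 17.5% of all genes tested). The glucose transporter SLC2A1 stood at 1.24 ± 0.21 (SE, adjusted p = 0.000157) and the hypoxia-responsive NDRG1 at 1.92 ± 0.29 (SE, adjusted p = 4.87e-05).

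Among signaling lists, 5 of 21 tested mTOR and AKT genes were called higher and 1 lower (28.6% called, against 17.5% of all genes tested). Their median was 0.01. GSK3B, the kinase that AKT inhibits, stood at 1.04 ± 0.15 (SE, adjusted p = 1.72e-05) and the PI3 kinase subunit PIK3R3 at 1.9 ± 0.29 (SE, adjusted p = 4.12e-05). Of 14 tested FOXO targets 4 were called higher and 2 lower (42.9% called, against 17.5% of all genes tested), at a median of 0.0. The thioredoxin inhibitor TXNIP stood at 1.82 and CDKN1B, the p27 inhibitor, at -0.93. Of 14 tested genes of MAPK output 2 were called higher (14.3%, against 17.5% of all genes tested called in either direction) and 1 by DESeq2, with DUSP6 at 0.75 and EGR1 at 0.91. NOTCH3, a Notch receptor, had 7.74, 6.42 and 8.8 CPM with vehicle and 60.0, 35.8 and 68.5 with carmofur, at 2.85 ± 0.35 (SE, adjusted p = 4.24e-06), and its ligand JAG1 stood at 1.2. NOTCH3 passed the filter on low counts only through carmofur, so that its direction was partly fixed. PTGS2, the inducible cyclooxygenase, stood at 1.65 ± 0.23 (SE, adjusted p = 2.96e-05).

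At an adjusted p under 0.05, genes that every cell uses were called about as often as all genes tested. A larger share of them than of all genes tested passed looser measures. Of 40 tested, 3 were called higher and 5 lower (20.0%, against 17.5% of all genes tested) at a median of 0.02. Of the 40, 18 had an unadjusted p under 0.05 (29.7% of all genes tested). The carmofur libraries lay above all vehicle libraries in 8 and below them in 12 (16.2% and 16.7% of all genes tested). DESeq2 called 3 higher and 5 lower. Of 69 tested cytosolic ribosomal protein genes 2 were called higher and 0 lower at a median of 0.08, with 6 at an unadjusted p under 0.05 and 1 called higher by DESeq2. Mitochondrial genome transcripts had a median of 1.32, but edgeR called 0 of 13. Of these, 2 had an unadjusted p under 0.05, 2 were called higher by DESeq2 and 9 with the block. The filter on low counts was passed only through carmofur by 6 of the 13, so that the median was partly fixed by it. Their share of counts overlapped, at 0.354% to 0.455% with vehicle and 0.444% to 0.881% with carmofur. Of 7 tested glial markers 2 were called lower, the filament genes VIM and GFAP, and 2 higher, the transcription factor SOX9 (0.55, adjusted p = 0.0166) and the hyaluronan receptor CD44 (0.39, adjusted p = 0.0416). VIM went from 13628, 11708 and 13372 CPM to 9047, 7346 and 7856 CPM at -0.67 ± 0.12 (SE, adjusted p = 0.000377).

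**Figure D3:**
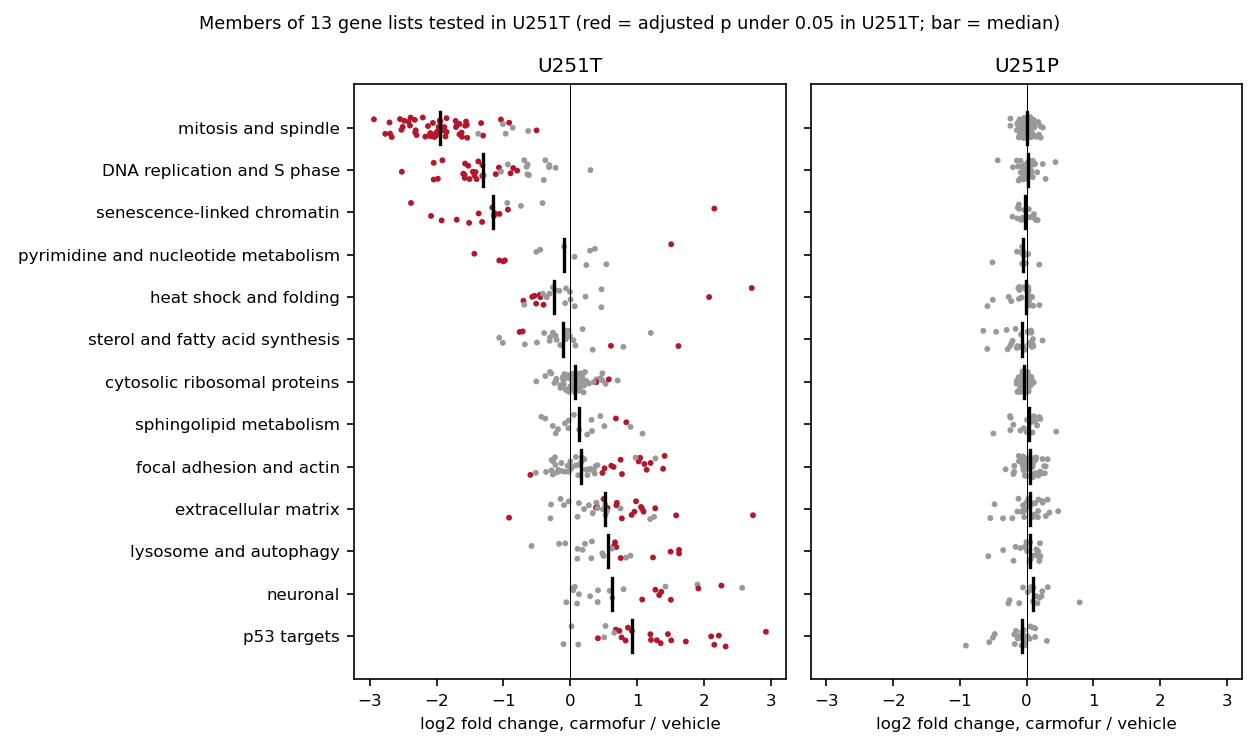
Log2 fold change of carmofur over vehicle (horizontal axes) for the tested members of 13 gene lists in U251T (left) and for the same genes where tested in U251P (right); each point is a gene, red points were called in U251T and bars mark medians. In U251T the medians run from -1.95 for mitosis to 0.92 for p53 targets, and in U251P none of these genes was called.

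The same genes were compared in U251P, where edgeR called 0 of 11426 genes and 394 (3.45%) had an unadjusted p under 0.05. Median log2 fold changes in U251P were 0.01 for the mitosis list, 0.02 for replication and -0.06 for p53 targets. The difference between the lines was tested as an interaction over all 12 libraries, and 582 of 13070 genes were called (4.45%), 241 with a higher effect in U251T (1.84%) and 341 with a lower effect (2.61%). Of the mitosis list 55 of 78 were called lower, of the replication list 31 of 61 lower, and of the p53 list 13 of 42 higher. For HMMR the difference was -2.71 ± 0.24 (SE, adjusted p = 6.57e-11) and for CDKN1A the adjusted p was 0.00719. Without U251T carmofur replicate 1 the interaction was called for 386 genes.

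**Figure D4:**
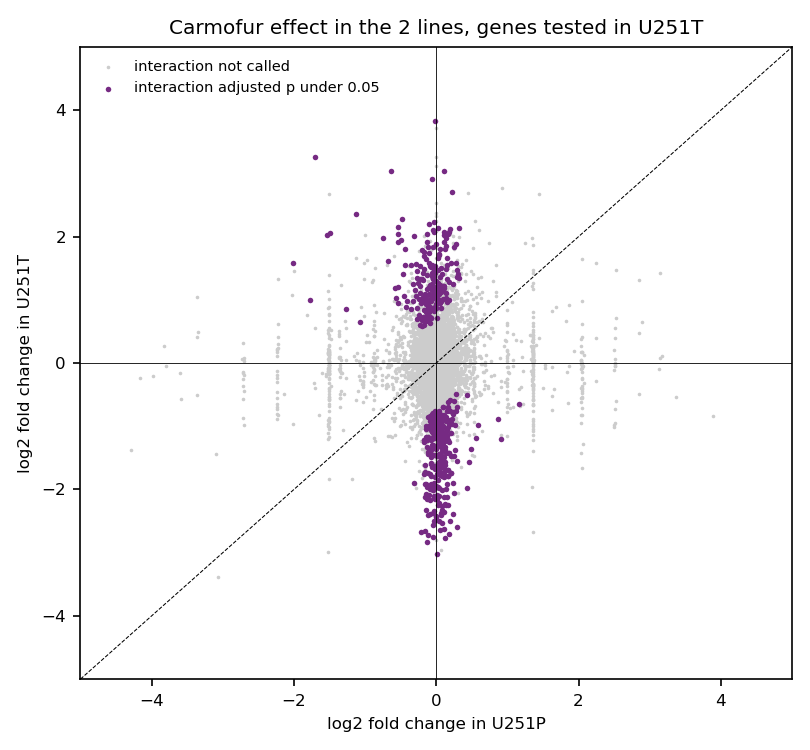
Log2 fold change of carmofur over vehicle in U251P (horizontal axis) and U251T (vertical axis), for genes tested in U251T, with genes called for the interaction of line and treatment in purple and a dashed line where both effects would be equal. Of the 529 called genes shown, 506 lie within 0.5 of 0 on the U251P axis and 23 beyond it, from -2.01 to 1.16, and 5 have a larger effect in U251P than in U251T.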

How the data were processed

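QuantSeq 3′ libraries, which read the end of each transcript, were made from total RNA of 12 samples. The deposited values are counts per Ensembl gene made by the authors, whole numbers without normalization; they do not scale with transcript length. The build is hg38 per the labels, and the annotation release and strand use are not given in the sources used here. Symbols were matched by identifier (56104 of 60107), and positions and gene types came from GENCODE (56531 matched). All columns were mapped to samples.

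Carmofur was compared with vehicle in the 6 U251T libraries with edgeR (4.0.16, R 4.3.3): TMM, filterByExpr, robust quasi-likelihood fit, Benjamini-Hochberg over all genes tested at 0.05. CPM are on TMM library sizes, and precision is limited by totals of 383633 to 2817379 counts. Intervals cover only the spread between libraries. The interaction of line and treatment used all 12 libraries. DESeq2 (1.42.0), RLE and upper-quartile scaling, other filters, thinning to 383633 counts, the replicate number as a block, the study's criteria and leaving out each library were alternatives. Steps were tested on simulated data, and figures were drawn in Python (3.11.15) with matplotlib (3.10.9).

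Replicate numbers come from the labels. Deviations of same-numbered vehicle and carmofur libraries from their group means correlated at 0.182, 0.549 and 0.231 in U251T (3088 genes), all above the limit set for pairing, though differently numbered libraries 1 and 3 reached 0.174 and 0.214.

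The members and the 23 lists were chosen with earlier results of these data known, and described by counts and medians without a test of the list. Genes were named by rule: the 10 called genes per direction of smallest p-value whose groups did not overlap, up to 6 called members per list and direction, ASAH1, TYMS and CDKN1A, and up to 5 genes per direction called for the interaction. Exceptions are stated, and some genes that met the rule are not reported here.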

Additional observations from a re-analysis of the deposited data

Results flagged for a closer look

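The genes below differed in their response to carmofur between the 2 lines, by the edgeR interaction test over 12 libraries, and each value is the log2 fold change in U251T minus that in U251P. Among those with a higher effect in U251T, RETREG1 differed by 2.45 (adjusted p = 1.81e-07), COL8A1 by 1.6, FHL1, a LIM domain protein of muscle, by 3.66, CELSR2, a planar polarity cadherin, by 2.94 and ALDH9A1, an aldehyde dehydrogenase, by 1.8 (adjusted p = 3.87e-06). FHL1 had 5.42, 6.04 and 5.28 CPM with vehicle and 43.5, 68.6 and 29 with carmofur in U251T. In the fit of U251T alone FHL1 passed the filter on low counts (9.77 CPM) only through carmofur. Its direction there was thus partly fixed. Among those with a lower effect, HMMR differed by -2.71, ASPM by -2.46, BUB1B by -2.62, CCNA2 by -2.52 and NUF2, a kinetochore protein, by -2.42 (adjusted p = 8.02e-10). The libraries of the lines also differed in depth and in pseudogene share, as given above, and the part of these in the differences was not tested.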

How the results depend on the processing

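The count of 1262 genes called in U251T became 2085 with the replicate block (1065 higher, 1020 lower), 828 when every library was thinned to 383633 counts (411 higher), and 2173 (1124 higher, 1049 lower) by the study's criteria with DESeq2 (unadjusted p under 0.2, base mean over 5, log2 fold change beyond 0.5), which left 8433 genes to select from. DESeq2 at an adjusted p under 0.05 called 858 genes, 430 of them higher. Leaving out 1 library gave 858 to 1237 calls in all, 436 to 631 higher and 422 to 606 lower, the lowest total without carmofur replicate 1. The interaction of 582 genes became 1205 with the replicate block within each line, 294 when thinned, and 386 to 721 with 1 library left out. In U251P same-numbered libraries correlated at 0.412, 0.0155 and 0.572, and differently numbered libraries 1 and 3 at -0.561 and -0.414. Replicates 1 and 3 of that line thus went with their own number, whereas replicate 2 was near 0. The comparison within U251P was fitted without a block. Of 1300 alternative values for 119 named genes, 1168 kept direction and call, 132 kept direction but lost the call and 0 reversed; of 690 alternative counts of called list members 572 stayed within the range used and 118 moved, and of 345 alternative list medians 338 moved by less than the spread used and 7 by more. Beside RRM2B, ELOVL1 and CTSL, the call was lost without vehicle replicate 1 for DTYMK, KCNMA1, ACLY, DDIT3 and EGR1, without vehicle replicate 2 for CNN3, SGPP1, DDIT3, GARS1 and CRYAB (adjusted p = 0.0585), without vehicle replicate 3 for HSPA5, without carmofur replicate 1 for RRM2, KCNMA1, CNN3, SPTLC1, SGPP1, DDIT3, GARS1 and HSPA5, without carmofur replicate 2 for DTYMK, SGPP1, EGR1 and JAG1, and without carmofur replicate 3 for DDIT3, GARS1 and HSPA5, with adjusted p up to 0.145 for DDIT3 and the direction kept in each. Genes called higher made up 51.9% of calls, and 44.1% with no filter on low counts. Counts of a few reads per library, as for TYMS and ASAH1, limit what these depths can show.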

Other observations

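Further gene families were looked up by symbol after their values were seen, so that their counts describe these libraries only. Of 11 tested SRSF splicing factors 6 were called lower and 0 higher, at a median of -0.5, and of 20 tested hnRNP proteins, which package and splice RNA, 13 were called lower and 0 higher, at a median of -0.61. Of 13 tested histone genes 11 were called lower, from -2.02 upward; these are near-identical copies between which reads can be split. Importins and exportins were called lower in 4 of 12 tested, KPNA2, XPO1, KPNB1 and XPO5. Of 6 tested plexins and semaphorins, guidance receptors and ligands, 5 were called higher (PLXNA2, SEMA3A, PLXNB2, PLXNA1 and SEMA3C), and of 7 tested protocadherins, FAT and CELSR cadherins 5 were called higher (FAT1, PCDH19, PCDH7, CELSR2 and PCDH18). Over all genes tested 9.09% were called higher and 8.43% lower.

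Pseudogenes were set beside the genes they are named after. Of 673 tested pseudogenes whose namesake was tested too, 60 were called (8.92%, against 17.5% of all genes tested), 52 lower and 8 higher; for 42 of the 60 the namesake was called in the same direction and for 0 in the other. Of 13 tested HMGB1 pseudogenes 11 were called lower, at a median of -1.07. Such copies can share reads, and their part in each other's counts was not tested.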
